A study of Mus musculus with 8 samples.

Results

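SINE elements are described here by the 37 repeat names that the deposited repeat table of an siRNA knockdown experiment assigns to the SINE class, out of 1499 names in that table. The names fall into B1 (16 names), B2 (5), B4 (4), ID (4), MIR (4) and 4 others. Every name of the class was taken, without regard to its values, and all 37 passed the filter on low counts. Counts of 1 name in 1 library ran from 63 (FAM) to 129102 (B3). A name pools all copies of that repeat in the genome, and no consensus or locus sequence was used here, so no sequence is shown.

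SINEs are short interspersed retroelements that encode no protein and move with the help of LINE proteins. RNA polymerase III transcribes them from a promoter inside the element, while many more copies are carried passively in introns and untranslated ends of genes transcribed by RNA polymerase II. B1 derives from the signal recognition particle RNA 7SL, B2 and ID derive from tRNA, B4 names join ID-like and B1-like parts, and MIR is an old family shared across mammals. Within B2 the names B2_Mm1a, B2_Mm1t and B2_Mm2 are young mouse subfamilies and B3 and B3A are older, and within B1 the B1_Mus and B1_Mm names are younger than the PB1 names. Counts per name do not tell a transcript started at a SINE from a SINE inside a gene's transcript.

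The cells were mouse embryonic stem cells with a MERVL::EGFP reporter transgene, kept on gelatin with 2i, serum and LIF and transfected on successive days with 20 pmol of siRNA in all. There were 4 groups of 2 biological replicates. The negative control group received 20 pmol of negative control siRNA, and the Chaf1a siRNA group received 10 pmol of it with 10 pmol against Chaf1a, the gene of the largest CAF-1 subunit (CAF-1 is a chaperone that loads histones behind replication). The other groups received 10 pmol against Chaf1a with 10 pmol of a diced siRNA pool, si308 or si309, against mDux, a transcription factor gene of the cleavage-stage embryo. The label of 1 si309 library gives no dose. PolyA RNA was sequenced as stranded libraries, and replicate 0 and replicate 1 name the count columns of a group.

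Gene counts per library ran from 26042851 to 42375685 and repeat counts from 1746498 to 2945624. Levels on the gene scale are counts per 1000000 gene counts (CPM). Chaf1a stood at 127 and 129 CPM in the negative control and at 29.4 to 36.3 in the 6 libraries with Chaf1a siRNA. mDux (4933403O03Rik) stood at 0 and 0.0558 in the negative control, 7.54 and 7.41 in the Chaf1a siRNA group, 0.033 and 0.0944 in the si308 group, and 0.165 and 0.236 in the si309 group. All 7 stem cell markers were present, with sums of 3504 and 3492 CPM in the negative control and 2856 to 3068 in the other 6 libraries. For every 100 counts in genes, repeats had 6.25 and 6.45 in the negative control libraries, 8.45 and 8.75 in the libraries given Chaf1a siRNA alone, 7.70 and 6.95 in those given si308, and 6.94 and 6.90 in those given si309. The si308 libraries thus differed from each other more than those of any other group. On the gene scale the gap between the 2 libraries of a group was widest in the si308 group for 34 of the 37 SINE names, and on the scale of repeat counts for 24.

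Each SINE was expressed in CPM of the gene counts and, separately, as a percent of repeat counts. The first scale sets a SINE against messenger RNA. The second gives its share of all repeat counts, SINEs included, so that it falls when other repeats gain. SINEs made up 40.4% to 44.9% of that total, which damps changes of the SINE sum on this scale. A name is called raised or lowered where its adjusted p is under 0.05 in edgeR's quasi-likelihood test with Benjamini-Hochberg adjustment over all repeat names tested, 1255 on the gene scale and 1250 on the repeat scale. Differences are log2 values of the first group minus the second. In bulk RNA, a change in the share of cells that express a SINE and a change in its level per cell cannot be told apart.

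With Chaf1a siRNA the young B2 names rose more than any other SINE, on both scales. B2_Mm1a stood at 498 and 561 CPM in the negative control, 2216 and 2386 under Chaf1a siRNA alone, 1672 and 1783 with si308 added, and 1602 and 1647 with si309 added. Both control libraries lay far below the other 6, and the Chaf1a siRNA libraries were the highest. The log2 difference between Chaf1a siRNA and negative control was 2.12 (SE 0.08, adjusted p = 8.0e-152), a 4.35-fold rise. Of all repeat names tested it ranked 31 by this change.

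B2_Mm1t followed the same order of groups. Its levels were 506 and 539 CPM in the negative control, 1674 and 1767 in the Chaf1a siRNA group, 1267 and 1308 in the si308 group, and 1224 and 1235 in the si309 group. The difference of 1.72 (SE 0.08, adjusted p = 3.6e-104) placed it 54 among all repeat names. B2_Mm2, the most abundant of the young names, went from 1612 and 1658 to 2781 and 2823, and stood at 2464 and 2322 with si308 and at 2306 and 2265 with si309. Its rise with Chaf1a siRNA was 0.78 (SE 0.07, adjusted p = 4.1e-24), at rank 285.

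As percents of repeat counts these names also rose. B2_Mm1a made up 0.796% and 0.869% of repeat counts in the negative control and 2.62% and 2.73% with Chaf1a siRNA. The counting error of such a share is small: the 95% Wilson interval of the 0.796% was 0.783% to 0.809%. The differences on this scale were 1.68 for B2_Mm1a (SE 0.05, adjusted p = 7.7e-22), 1.28 for B2_Mm1t (SE 0.04, adjusted p = 7.6e-21) and 0.34 for B2_Mm2 (SE 0.03, adjusted p = 2.9e-10). All 3 rose in each of 13 alternative fits on each scale.

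The older B2 names moved differently. B3, the most counted SINE name, stood at 2927 and 3062 CPM in the negative control, 3279 and 3418 in the libraries given Chaf1a siRNA alone, 3504 and 3047 in those given si308, and 3098 and 3082 in those given si309. Its difference with Chaf1a siRNA was 0.16 on the gene scale (SE 0.07, adjusted p = 0.048), -0.01 with DESeq2 size factors from the gene table and -0.28 on the repeat scale (SE 0.03, adjusted p = 6.9e-09). B3A, which the naming rule leaves out and which is given as the remaining B2 name, had differences of 0.19 (adjusted p = 0.020) and -0.25 (adjusted p = 1.1e-07). The direction of B3 and B3A therefore depended on the scale, whereas that of the young names did not.

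The ratio of a young name to B3 within a library needs no scaling. The ratio of B2_Mm1a to B3 was 0.170 and 0.183 in the negative control, 0.676 and 0.698 under Chaf1a siRNA alone, 0.477 and 0.585 with si308 added, and 0.517 and 0.535 with si309 added. For B2_Mm1t it was 0.173 and 0.176 in the negative control, 0.511 and 0.517 in the Chaf1a siRNA group, 0.362 and 0.429 in the si308 group, and 0.395 and 0.401 in the si309 group. For B2_Mm2 it was 0.551 and 0.542, then 0.848 and 0.826, then 0.703 and 0.762, and then 0.745 and 0.735 in the same order of groups. For each young name the negative control, pool and Chaf1a siRNA libraries formed separate ranges.

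**Figure D1:**
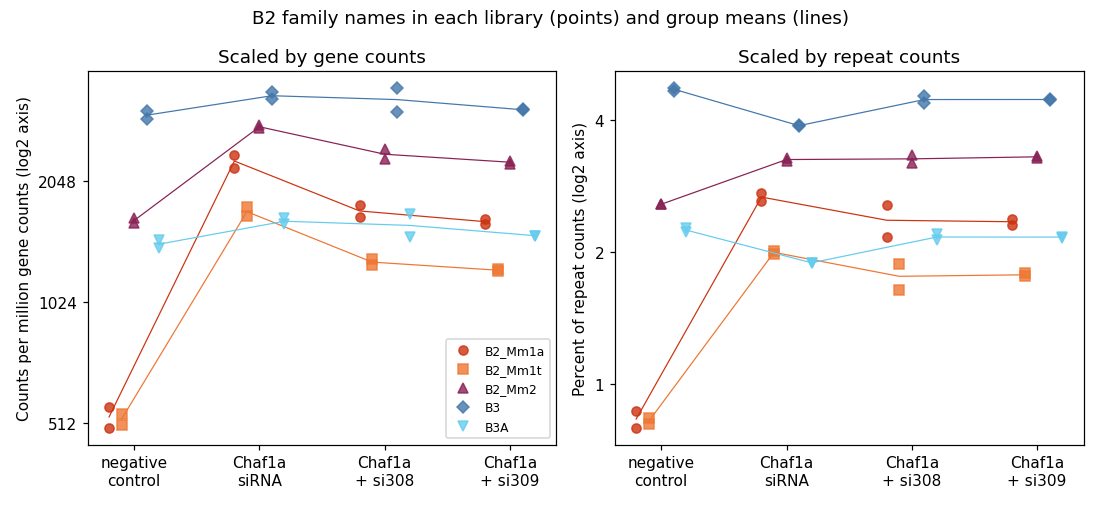
Levels of the 5 B2 names in each library (points) with group means (lines), as CPM (left) and as percent of repeat counts (right), both on log2 axes. B2_Mm1a goes from 498 and 561 CPM in the negative control to 2216 and 2386 with Chaf1a siRNA and stays at 1602 to 1783 with the pools, while B3 keeps between 2927 and 3504.

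Over all SINE names, 17 of 37 were raised with Chaf1a siRNA on the gene scale and 0 were lowered. Of all 1255 repeat names tested, 57.7% were raised and 1.83% lowered. The raised SINEs were all 5 B2 names, all 4 MIR names, 5 of 16 B1 names, 2 of 4 B4 names, 0 of 4 ID names and 1 of the 4 others. The median SINE difference was 0.16, below that of all repeat names (0.39), LINE names (0.39) and LTR names (0.51). Without the young B2 names, the other 34 had a median of 0.16, with 14 raised. Libraries of the Chaf1a siRNA group all lay above those of the negative control for 36 of the 37 names, against 76.7% of all repeat names.

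This small general shift was of the size of the scaling. The median of all genes tested was 0.22 with gene totals and 0.06 with TMM factors (trimmed mean of M values, a scaling that discounts the most changed genes). With TMM factors from the gene table the other 34 SINE names had a median of -0.00 and 4 SINE names were raised, the young B2 names and B1_Mus1. With DESeq2 the same 4 names were raised and the median of the other 34 was -0.02. The shares of all repeat names raised under these factors are not given. Of the 37 differences, all above 0 with gene totals, 17 were below 0 with TMM factors and 21 with DESeq2. On the repeat scale, 3 SINE names were raised, again the young B2 names, and 30 were lowered, against 21.3% and 23.1% of all repeat names. The SINE median on that scale was -0.28, and that of all repeat names was -0.05.

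The count of raised names on the gene scale rested on few libraries. It was 5 without negative control replicate 0 or Chaf1a siRNA replicate 1, 8 without Chaf1a siRNA replicate 0, 10 without either si309 library, 11 without negative control replicate 1, and 29 without either si308 library. The si308 libraries take no part in this difference and enter through the estimate of spread shared by all repeat names. Its common dispersion fell from 0.00303 to 0.000968 without either of them. The shares of all repeat names raised in these fits are not given, so the counts do not show a change particular to SINEs. On the repeat scale the count of lowered names stayed at 29 or 30 whichever library was left out.

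**Figure D2:**
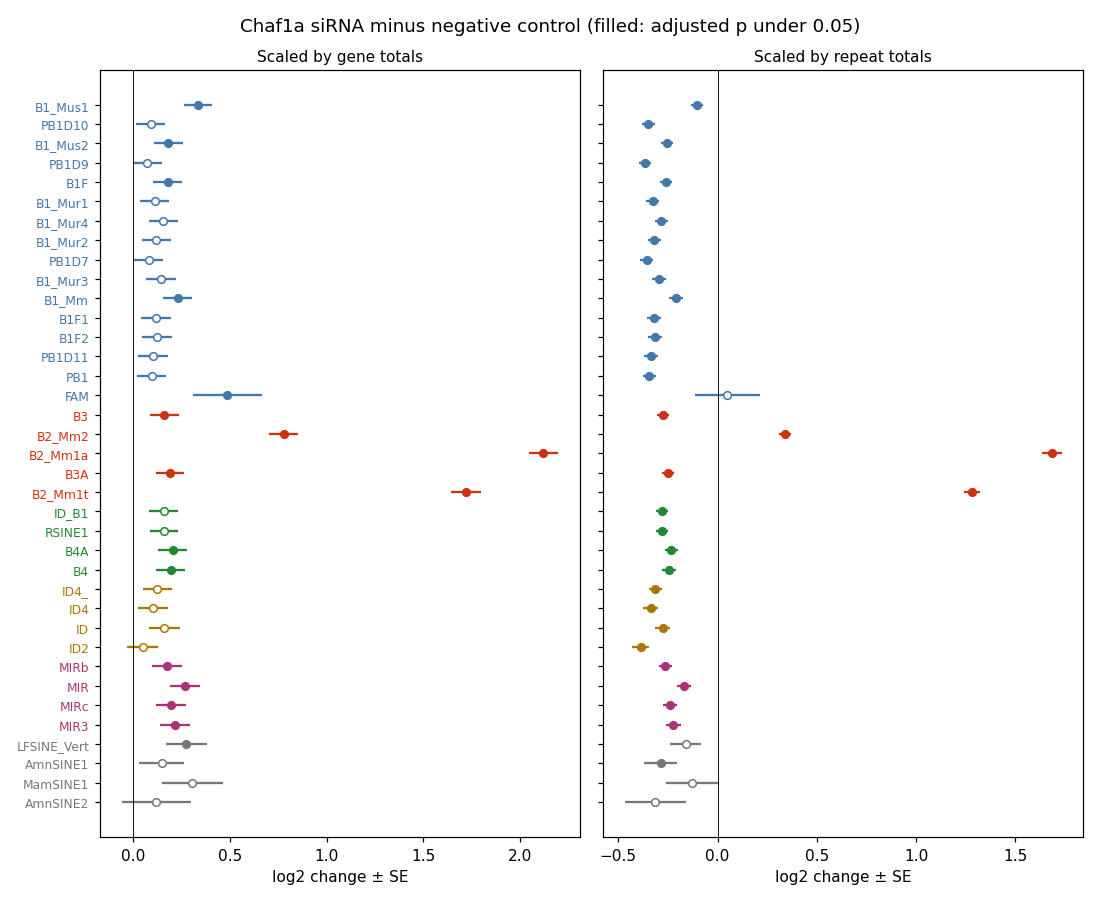
Log2 difference of Chaf1a siRNA minus negative control (points, bars are standard errors) for the 37 SINE names, scaled by gene totals (left) and repeat totals (right). Names are ordered by family (B1, B2, B4, ID, MIR and others, each in its own colour), and filled points have an adjusted p under 0.05. B2_Mm1a, B2_Mm1t and B2_Mm2 are to the right of 0 on both sides, and most other names lie right of 0 on the left and left of 0 on the right.

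Among B1 names, B1_Mus1 had the clearest change. Its levels were 1445 and 1480 CPM in the negative control, 1846 and 1840 in the libraries given Chaf1a siRNA alone, 1704 and 1526 in those given si308, and 1580 and 1533 in those given si309. The Chaf1a siRNA libraries lay above all others, and the difference from the negative control was 0.33 (SE 0.07, adjusted p = 2.4e-05), raised in all 13 alternatives on that scale, with 0.18 under TMM factors and 0.16 with DESeq2. As a share of repeat counts B1_Mus1 was lowered (-0.10, SE 0.03, adjusted p = 0.0079). That call was lost with TMM factors, with DESeq2 and without Chaf1a siRNA replicate 1.

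B1_Mus2 and PB1D10 are the other abundant B1 names. B1_Mus2 stood at 1183 and 1210 CPM in the negative control and 1351 and 1364 with Chaf1a siRNA, a difference of 0.18 (SE 0.07, adjusted p = 0.027). That call held in 5 of 13 alternatives. PB1D10, of the proto-B1 group, stood at 1333 and 1370 and at 1416 and 1460, a difference of 0.09 that did not pass the test (SE 0.07, adjusted p = 0.29). B1_Mus2 and PB1D10 were both lowered on the repeat scale, with differences of -0.26 and -0.35. The ratio of B1_Mus1 to PB1D10 was 1.083 and 1.080 in the negative control, 1.304 and 1.260 under Chaf1a siRNA alone, 1.103 and 1.149 with si308 added, and 1.152 and 1.129 with si309 added. For B1_Mus2 it was 0.887 and 0.884, then 0.954 and 0.934 under Chaf1a siRNA alone. B1_Mm, a younger name that the naming rule leaves out, was raised by 0.23 on the gene scale (adjusted p = 0.0054). That call was lost with TMM factors and with DESeq2, and B1_Mm was lowered on the repeat scale (-0.21). Its ratio to PB1D10 was 0.403 and 0.389, then 0.442 and 0.429 under Chaf1a siRNA alone.

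FAM, a free monomer related to 7SL RNA, was among the least counted SINE names. It had 63 and 99 counts in the negative control and 111 and 101 with Chaf1a siRNA, or 2.26 and 2.76 against 3.27 and 3.88 CPM. Its difference was 0.49 on the gene scale (SE 0.18, adjusted p = 0.014) and 0.05 on the repeat scale (SE 0.16, adjusted p = 0.83). The first call held in 8 of 12 alternatives.

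B4 names made up the third largest family by counts. ID_B1, the most counted of them, stood at 2330 and 2446 CPM in the negative control, 2630 and 2695 in the Chaf1a siRNA group, 2805 and 2479 in the si308 group, and 2499 and 2498 in the si309 group. Its difference with Chaf1a siRNA was 0.16 (SE 0.07, adjusted p = 0.055), and that of RSINE1 was 0.16 (SE 0.07, adjusted p = 0.053). B4A was raised by 0.20 (SE 0.07, adjusted p = 0.012). ID_B1, RSINE1 and B4A were lowered on the repeat scale, with differences of -0.28, -0.28 and -0.23.

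ID names showed the smallest gene-scale differences of the 5 main families, with a median of 0.11 and 0 of 4 raised. All 4 differences were above 0, and 57.7% of all repeat names were raised. ID4_ stood at 449 and 470 CPM in the negative control and 495 and 507 with Chaf1a siRNA (0.12, SE 0.08, adjusted p = 0.15). ID4 stood at 375 and 409 and then at 412 and 429 (0.10, SE 0.08, adjusted p = 0.24). The name ID itself had a difference of 0.16 (SE 0.08, adjusted p = 0.072). All 4 were lowered as shares of repeat counts, with -0.31 for ID4_, -0.34 for ID4 and -0.28 for ID.

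All 4 MIR names were raised on the gene scale, where 57.7% of all repeat names were raised. Their median was 0.21, below that of all repeat names (0.39). Names with close values fell on both sides of the threshold: MIRb at 0.17 was called, and ID at 0.16 was not. MIRb stood at 482 and 501 CPM in the negative control and 543 and 566 with Chaf1a siRNA (0.17, SE 0.08, adjusted p = 0.037). MIR went from 404 and 439 to 498 and 518 (0.27, SE 0.08, adjusted p = 0.0011), and MIRc from 253 and 267 to 294 and 302 (0.20, SE 0.08, adjusted p = 0.020). With DESeq2 the MIRb difference was -0.000928, and with TMM factors 0 of the 4 were raised. Relative to all repeats the 4 MIR names were lowered, with -0.17 for MIR, -0.26 for MIRb and -0.24 for MIRc.

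The other 4 names, from ancient vertebrate families, were rare. LFSINE_Vert stood at 13.8 and 14.1 CPM in the negative control and 16.5 and 17.4 with Chaf1a siRNA (0.27, SE 0.11, adjusted p = 0.021). AmnSINE1 had a difference of 0.15 (SE 0.11, adjusted p = 0.27) and MamSINE1 of 0.31 (SE 0.16, adjusted p = 0.084). AmnSINE1 was lowered on the repeat scale (-0.29, adjusted p = 0.0062), and LFSINE_Vert (-0.16, adjusted p = 0.094) and MamSINE1 (-0.13, adjusted p = 0.47) did not pass the test.

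Summed over all names, SINE counts were 27081 and 28319 CPM in the negative control, 34357 and 35378 in the libraries given Chaf1a siRNA alone, 34615 and 30986 in those given si308, and 31146 and 30990 in those given si309. The Chaf1a siRNA sum was 0.33 above the negative control on the log2 scale, against a pooled SD of 0.04. With TMM factors this difference was 0.173, and with DESeq2 size factors 0.157. As a percent of repeat counts the sum was 43.3 and 43.9 in the negative control, 40.6 and 40.4 in the Chaf1a siRNA group, 44.9 and 44.6 in the si308 group, and 44.9 in both libraries of the si309 group. It was therefore higher on the first scale and lower on the second (-0.11, pooled SD 0.01; -0.0655 with TMM factors) with Chaf1a siRNA. MERVL-int and MT2_Mm, the internal part and terminal repeat of the endogenous retrovirus MERVL, held 0.135% and 0.134% of repeat counts in the negative control and 3.94% and 4.01% with Chaf1a siRNA. With them left out of the total, the SINE difference on the repeat scale was -0.05.

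The 3 young B2 names carried 57.7% of the gain of the SINE sum with Chaf1a siRNA, or 4137 of 7167 CPM. Without them the difference of the sum was 0.16 on the gene scale and -0.27 on the repeat scale. The B2 sum was 6935 and 7282 CPM in the negative control and 11550 and 12051 with Chaf1a siRNA, a ratio of 1.66. The B1 sum was 11416 and 11762, then 12829 and 13021, a ratio of 1.12. The corresponding ratios were 1.13 for B4, 1.08 for ID and 1.16 for MIR.

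**Figure D3:**
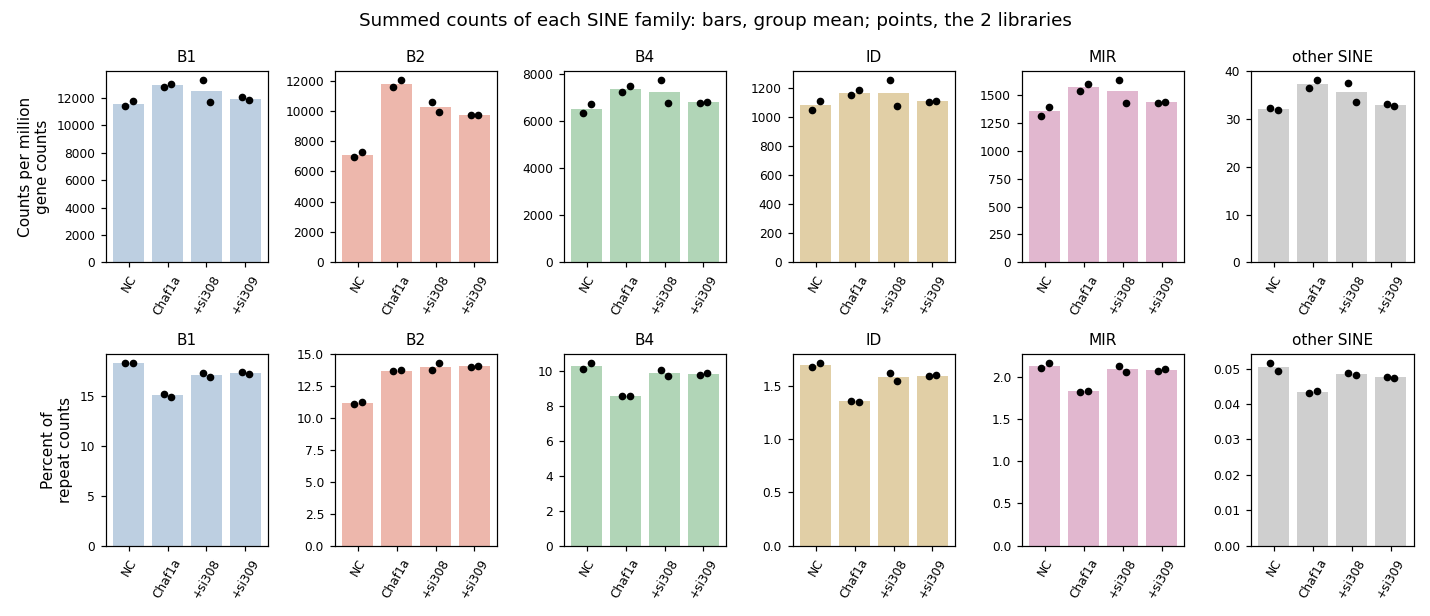
Summed counts of each SINE family in each library (points) with group means (bars), in CPM (top) and as percent of repeat counts (bottom), where NC is the negative control and the pools are given with Chaf1a siRNA. The B2 sum is higher in all 6 libraries with Chaf1a siRNA on both scales, while the other main families are lower as percents of repeat counts with Chaf1a siRNA alone.

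Within SINE counts the balance moved from B1 to B2. The young B2 names held 9.66% and 9.74% of SINE counts in the negative control, 19.4% and 19.7% under Chaf1a siRNA alone, 15.6% and 17.5% with si308 added, and 16.5% and 16.6% with si309 added. B1 names held 42.2% and 41.5% in the negative control, 37.3% and 36.8% in the Chaf1a siRNA group, 38.5% and 37.9% in the si308 group, and 38.7% and 38.2% in the si309 group. B4 names went from 23.4% and 23.8% to 21.1% in both Chaf1a siRNA libraries. The negative control libraries did not overlap with any other library in these shares of young B2, B1 and B4.

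**Figure D4:**
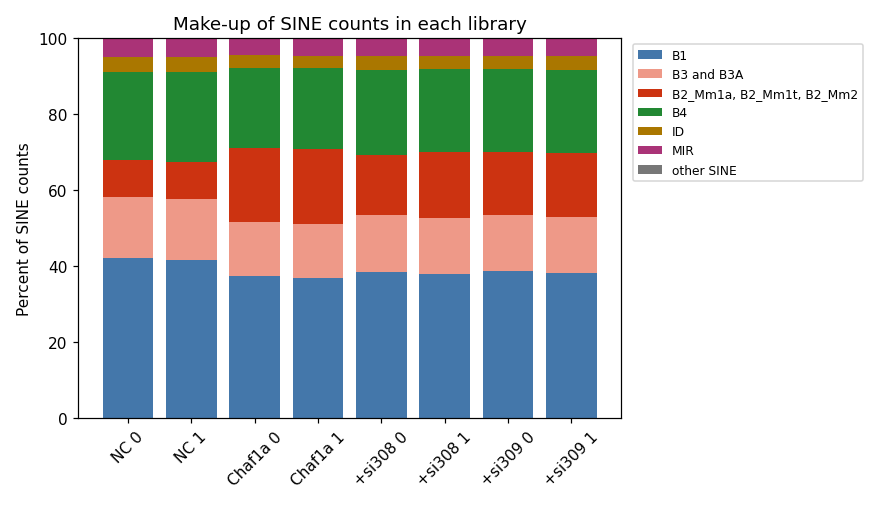
Make-up of SINE counts in each of the 8 libraries, as percent of the library's SINE counts, where NC is the negative control and 0 and 1 are the replicates. The share of B2_Mm1a, B2_Mm1t and B2_Mm2 together is under 10% in both negative control libraries and 15.6% to 19.7% in the other 6.

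Marker sums differed between groups, and not all of them followed the B2 rise. The sum of 6 genes of the two-cell-like state, a rare state of these cultures that resembles the cleavage-stage embryo, was 0.859 and 1.09 CPM in the negative control, 817 and 862 in the libraries given Chaf1a siRNA alone, 0.726 and 0.85 in those given si308, and 21.4 and 20.6 in those given si309. With si308 this sum was thus no higher than in the control libraries while B2_Mm1a was 1672 and 1783 CPM. The sum of the 5 measured RNAs known to stay in the nucleus was 1814 and 1872 in the negative control and 2767 to 2964 in the other 6 libraries. Its members did not all move one way. Rian (749 and 751 against 1284 to 1425), Meg3 (230.1 and 260 against 525 to 594) and Mirg (35.1 and 37.4 against 95.4 to 109), which lie in 1 imprinted cluster, and Malat1 (549.7 in both control libraries against 615 to 717) were higher in the other 6 libraries. Neat1 was lower there, at 184 to 219 against 249.9 and 275. The stem cell marker sum given above was also lower in all 6. Of its members, Klf4 was higher there, at 109.6 to 144 against 103.6 and 108.9. Zfp42 overlapped, at 321 to 348 against 363 and 345, and the others were lower. The sum of 4 fibroblast markers was 2.43 and 2.40 against 46.5 to 56.2, with Col3a1 at 0 in both control libraries. That of 4 primitive endoderm markers was 2.79 and 2.01 against 14.7 to 25.4. Dab2 carried most of it (1.47 and 0.81 against 11.1 to 18.7). Gata6 was also higher, while Gata4 (0.64 and 0.73 against 0.71 to 1.04) and Sox17 overlapped the control. The sum of 4 trophoblast markers was 7.66 and 7.03 against 10.8 to 18.2. Krt7, Eomes and Elf5 were higher, and Cdx2 (0.18 and 0.14 against 0.05 to 0.30) overlapped. The share of gene counts from the mitochondrial genome was 0.848% and 0.755% against 1.02% to 1.12%. The part of these markers in the SINE differences was not tested.

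The pools ask what remains of the change with Chaf1a siRNA when mDux RNA is also lowered. These comparisons share the Chaf1a siRNA libraries with the one above. Against Chaf1a siRNA alone, si308 lowered 4 of 37 SINE names on the gene scale and raised 0, where 24.4% of all repeat names were lowered and 0.398% raised. The 4 were B2_Mm1a (-0.41, SE 0.07, adjusted p = 3.6e-07), B2_Mm1t (-0.42, SE 0.07, adjusted p = 3.0e-07), B2_Mm2 (-0.23, SE 0.07, adjusted p = 0.010) and B1_Mus1 (-0.19, SE 0.07, adjusted p = 0.041). The B1_Mus1 call held in 5 of 13 alternatives, and the B2_Mm2 call was lost without either Chaf1a siRNA library. The median SINE difference was -0.02, against -0.15 for all repeat names.

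With si309, 5 of 37 SINE names were lowered on the gene scale and 0 raised, where 36.2% of all repeat names were lowered and 0.159% raised. They were B2_Mm1a (-0.50, SE 0.07, adjusted p = 2.5e-10), B2_Mm1t (-0.48, SE 0.07, adjusted p = 1.3e-09), B2_Mm2 (-0.29, SE 0.07, adjusted p = 0.00039), B1_Mus1 (-0.24, SE 0.07, adjusted p = 0.0043) and FAM (-0.43, SE 0.18, adjusted p = 0.040). The median was -0.11, against -0.24 for all repeat names. The si309 libraries lay below both Chaf1a siRNA libraries for 36 of 37 SINE names, against 70.6% of all repeat names.

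The counts on the gene scale again moved with single libraries. With si308, 17 names were lowered without si308 replicate 0 and 2 without either Chaf1a siRNA library. With si309, 20 were lowered without either si308 library, and 3 without Chaf1a siRNA replicate 1 or either si309 library. With TMM factors si309 lowered 8 names. Shares of all repeat names lowered in these fits are not given. B2_Mm1a and B2_Mm1t were lowered by both pools in all 13 alternatives on the gene scale.

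On the repeat scale B2_Mm1a and B2_Mm1t were lowered with the pools, while most SINE names were raised. With si308, 29 SINE names were raised and 2 lowered, where 18.6% of all repeat names were raised and 14.6% lowered. With si309, 28 were raised and 2 lowered, against 15% and 13.7%. The lowered names were B2_Mm1a (-0.18 with si308, -0.19 with si309) and B2_Mm1t (-0.18 and -0.17) in each case. With si308 these values moved with single libraries: B2_Mm1a was at -0.06 without si308 replicate 0, where its call was lost, and at -0.30 without si308 replicate 1, and B2_Mm1t at -0.09 and -0.28. B2_Mm2 did not pass the test, with 0.01 and 0.02. Nor did B1_Mus1, with 0.04 and 0.07, or FAM, the lowest B1 name, with -0.12 for each pool. The calls of B2_Mm1a on this scale held in 10 of 13 alternatives with si308 and in 11 with si309. MERVL-int and MT2_Mm held 0.152% and 0.154% of repeat counts with si308 and 0.255% and 0.246% with si309, far below their share with Chaf1a siRNA alone.

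**Figure D5:**
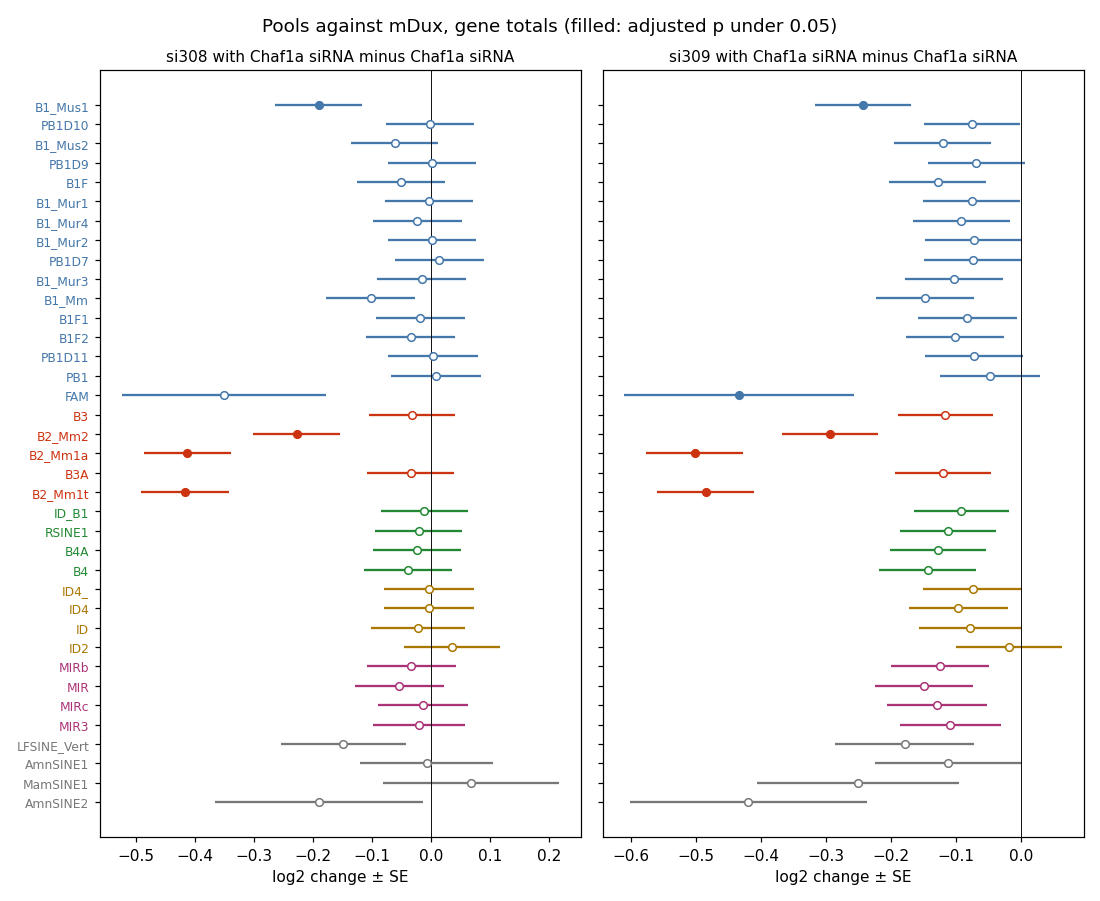
Log2 difference on the gene scale between each pool given on top of Chaf1a siRNA and Chaf1a siRNA alone (points, bars are standard errors) for the 37 SINE names, coloured by family, with si308 on the left and si309 on the right; filled points have an adjusted p under 0.05. The young B2 names lie between -0.23 and -0.50, and most of the others lie nearer to 0.

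Most of the rise of the young B2 names remained with either pool. Of the rise of B2_Mm1a above the negative control on the gene scale, 67.6% ± 4.4 (SD, n = 2) was left with si308 and 61.8% ± 1.8 with si309. Such SDs hold the spread of the 2 pool libraries only, not that of the libraries that set the rise. For B2_Mm1t 63.9% ± 2.4 and 59.0% ± 0.67 were left, and for B2_Mm2 64.9% ± 8.6 and 55.8% ± 2.5. MERVL-int gives the contrast: it rose from 54.2 and 54.9 CPM to 2675 and 2830, and 0.777% ± 0.15 of that rise was left with si308 and 2.63% ± 0.16 with si309. Measured on the repeat scale, 83.3% ± 15 and 82.3% ± 3.0 of the B2_Mm1a rise were left. For B2_Mm1t the values were 79.9% ± 14 and 81.1% ± 1.6. For B2_Mm2 they were 102% ± 15 and 107% ± 4.4, so its fall with the pools depended on the scale.

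The tests against the negative control, added after the data were seen and sharing its libraries, gave the same order of groups on the gene scale. B2_Mm1a was raised by 1.71 with si308 (SE 0.08, adjusted p = 1.9e-102) and by 1.62 with si309 (SE 0.08, adjusted p = 7.7e-93) on the gene scale. B2_Mm1t was raised by 1.30 and 1.23, and B2_Mm2 by 0.55 and 0.48. Relative to repeat counts the values were 1.51 and 1.50, then 1.10 and 1.11, and then 0.34 and 0.36. The order did not hold there for B2_Mm2, at 0.34 with Chaf1a siRNA alone, or between the pools for B2_Mm1t. All of these calls held in all 13 alternatives.

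Beyond the young B2 names, si308 left 5 SINE names raised above the negative control on the gene scale, B4A, MIR, MIR3, MIRc and MamSINE1, which makes 8 of 37 against 33.5% of all repeat names. That count was 33 without si308 replicate 1, 3 or 4 without any other library, and 3 with TMM factors or DESeq2, under which 28 and 30 of the 37 differences had the other sign. With si309 the young B2 names were the only ones raised, 3 of 37 against 17.5% of all repeat names, and 33 of the 37 differences had the other sign with TMM factors or DESeq2. B1_Mus1 stood 0.14 above the negative control with si308 (SE 0.07, adjusted p = 0.12) and 0.09 above it with si309 (SE 0.07, adjusted p = 0.43), but below it with TMM factors (-0.02 and -0.09) and DESeq2 (-0.04 and -0.10). As shares of repeat counts, 11 SINE names with si308 and 5 with si309 were lowered, against 7.28% and 7.68% of all repeat names. These counts ran from 2 to 20 and from 0 to 15 when 1 library was left out, highest without si308 replicate 0 for si308 and without either si308 library for si309, and were 24 and 22 with TMM factors.

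The pools were also compared with each other. On the gene scale 0 of 37 SINE names were raised or lowered in si309 minus si308, where 0.159% of all repeat names were raised and 0% lowered. On the repeat scale the count was also 0, where 0.72% were raised and 0% lowered. At an unadjusted p under 0.05 there was 1 SINE name on the gene scale and 0 on the repeat scale, and DESeq2 also called 0 on both. B2_Mm1a differed by -0.09 (SE 0.07, adjusted p = 0.77) and B2_Mm1t by -0.07 (SE 0.07, adjusted p = 0.79). Without si308 replicate 1, 26 SINE names were lowered on the gene scale, so the count of 0 there depends on that library. MERVL-int did differ between the pools, by 0.73 (SE 0.08, adjusted p = 2.8e-17).

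The authors' deposited table, which compares each group with the negative control, was read beside these fits. In the authors' deposited table the log2 fold change of B2_Mm1a was 1.91 under Chaf1a siRNA alone, 1.50 with si308 added, and 1.42 with si309 added. For B2_Mm1t the authors' deposited table gives 1.51, 1.10 and 1.04, and for B2_Mm2 0.58, 0.36 and 0.29. At an adjusted p under 0.05 the authors' deposited table has 4 of 37 SINE names raised and 1 lowered with Chaf1a siRNA. Of 1380 repeat names, 366 were raised and 32 lowered there. The SINE counts were 3 and 1 for the si308 group, where 109 and 51 of 1269 repeat names were raised and lowered. For the si309 group they were 3 and 24, where 74 and 119 of 1269 were. The fourth raised name with Chaf1a siRNA in the authors' deposited table was B1_Mus1 (0.14, adjusted p = 0.0062).

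Small RNAs related to SINEs are listed under other repeat classes. The libraries hold polyA RNA, so counts of these small RNAs need not follow their full level in the cell. BC1_Mm, a neuronal RNA and the relative of ID elements, stood at 90.9 and 90.7 CPM in the negative control and 96.8 and 97.1 with Chaf1a siRNA (0.09, SE 0.08, adjusted p = 0.31). 7SLRNA, the ancestor of B1, stood at 6.34 and 7.09 and then at 7.48 and 8.03 CPM (0.20, SE 0.13, adjusted p = 0.18). 4.5SRNA, a relative of B1, went from 20.9 and 20.6 to 27.1 and 28.0 (0.41, SE 0.10, adjusted p = 0.00012). Its difference on the repeat scale was -0.03 (SE 0.07, adjusted p = 0.78). HY1, a further small RNA, was near the floor, at 0 and 0.0279 CPM in the negative control and 0.972 and 1.19 with Chaf1a siRNA. Its difference was 5.79 (SE 0.74, adjusted p = 5.1e-14). Against Chaf1a siRNA alone it was -4.57 with si308 and -4.50 with si309.

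Of 42 genes listed for the transcription, binding and silencing of SINEs, 15 were raised and 15 lowered with Chaf1a siRNA, where 45.2% of all genes tested were raised and 21.1% lowered. The median difference was 0.04, and with TMM factors 12 were raised and 19 lowered. Subunits of RNA polymerase III split evenly, with 4 of 13 raised and 4 lowered. Polr3g, a subunit enriched in pluripotent cells, fell from 113 ± 1.7 to 81.0 ± 5.2 CPM (-0.48, SE 0.06, adjusted p = 2.0e-07). Of 12 polymerase III factors 5 were raised and 3 lowered, and of 12 chromatin genes 3 were raised and 7 lowered.

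Genes for proteins that bind or edit SINE RNA had 3 of 5 raised and 1 lowered. Srp14, whose product binds 7SL RNA and its B1 relatives, rose from 64.0 ± 0.13 to 110 ± 1.6 CPM with Chaf1a siRNA (0.78, SE 0.05, adjusted p = 2.9e-11). It stood at 153 ± 3.9 with si308 and 156 ± 2.1 with si309, above Chaf1a siRNA alone by 0.47 (adjusted p = 2.1e-07) and 0.51 (adjusted p = 1.0e-07). Chd4, a chromatin remodeller of the NuRD complex that also acts in the ChAHP complex at SINEs, rose from 739 ± 3.1 to 1021 ± 9.4 (0.47, SE 0.04, adjusted p = 3.0e-09). Setdb1, a histone H3K9 methyltransferase, rose by 0.39 (SE 0.04, adjusted p = 1.7e-07). Chd4 and Setdb1 were among the 3 chromatin genes raised, while 7 of the 12 were lowered and the median was -0.11.

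With si308, 3 of the 42 genes were raised and 3 lowered against Chaf1a siRNA alone, where 9.51% of all genes were raised and 12.2% lowered. Chd4 fell by 0.23 (SE 0.04, adjusted p = 0.00025), and Suv39h1, another H3K9 methyltransferase, fell by 0.45 (SE 0.09, adjusted p = 0.00081). Polr3k, a subunit of RNA polymerase III, rose by 0.24 (SE 0.07, adjusted p = 0.025). With si309, 2 were raised and 3 lowered, against 4.2% and 6.66%. Trim28, the corepressor of KRAB zinc finger proteins, fell by 0.18 (SE 0.04, adjusted p = 0.0035), Gtf3c6, a subunit of TFIIIC, fell by 0.20 (SE 0.06, adjusted p = 0.023), and Crcp, a polymerase III subunit, rose by 0.26 (SE 0.08, adjusted p = 0.038). Between the pools 1 gene was raised, Suv39h1 (0.35, SE 0.09, adjusted p = 0.026), where 2.63% of all genes were raised and 0.974% lowered.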

How the data were processed

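Per the submitters' processing notes, reads were aligned with Novoalign 2.8 to mm10 and DESeq2 was used; the read counter and the treatment of reads with several matches are not given in the sources used here, which limits how counts of near-identical young copies can be read. The deposited tables hold raw counts per gene and per repeat name. They also hold the authors' regularised log2 values (16 columns of per-sample values, not used), log2 fold changes and adjusted p-values per comparison. Count columns were mapped to groups only.

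Repeat counts were fitted with edgeR 4.0.16 (R 4.3.3; quasi-likelihood F test, filterByExpr, 1 mean per group, 8 libraries) with library sizes from the gene or repeat totals, and genes with gene totals. The fit was also run on simulated counts with as many repeats raised as lowered and a common spread. That setting differs from these data, so it cannot test the scaling or the calls of small differences. Named SINEs were the 3 most counted per family and the 3 with the largest called change without overlap per comparison and direction; named pathway genes were the 4 with the smallest adjusted p. Members and lists were chosen with earlier results of these data known. On the gene scale the spread was wholly shared over repeats (prior degrees of freedom infinite, 4 residual), so p-values do not measure each repeat's own spread. Errors after ± are SDs of 2 libraries, and intervals cover counting error only. Alternatives were TMM, DESeq2 1.42.0, no filter, a mean of at least 100 counts, a replicate block, and leaving out each library. Deviations of same-numbered count columns correlated weakly (-0.14 to 0.12), which cannot show whether samples were paired.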

Additional observations from a re-analysis of the deposited data

How the results depend on the processing

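The rise of B2_Mm1a, B2_Mm1t and B2_Mm2 with Chaf1a siRNA kept its call in all 13 alternatives on both scales. Gene scale, TMM factors: 4 SINE names raised with Chaf1a siRNA (17 in the report), sum difference 0.173 (0.33), 8 lowered with si309 against Chaf1a siRNA and a sum of -0.189 there, and 3 raised with si308 against the negative control. Gene scale, DESeq2 or its size factors: 4 raised and a sum of 0.157 with Chaf1a siRNA, 3 raised with si308 and 1 lowered with si309 against the negative control, and, among called names, differences turned to -0.0139 for B3 and -0.000928 for MIRb with Chaf1a siRNA and to -0.00355 for B4A and -0.00157 for MIRc with si308 against the negative control. Called or not, 17 of 37 gene-scale differences turned sign with TMM factors and 21 with DESeq2 for Chaf1a siRNA against the control, 28 and 30 for si308, and 33 under each for si309; the medians of the 34 names other than the young B2 names were then -0.001 and -0.017, -0.041 and -0.057, and -0.132 and -0.140. Repeat scale, TMM factors: sums of -0.0655 (Chaf1a siRNA against the control), 0.0706 (si308 against Chaf1a siRNA), 0.0855 (si309 likewise) and 0.0149 between the pools; 24 names lowered with si308 and 22 with si309 against the negative control. Repeat scale, DESeq2 or its size factors: sums of -0.0780, 0.0765, 0.0924 and 0.0159 in that order, and 1 name lowered with each pool against Chaf1a siRNA. Without the young B2 names, a choice made after seeing the data, the sums were 0.165 (Chaf1a siRNA) and -0.113 (si309 against it) on the gene scale, and -0.273, 0.196 and 0.201 (Chaf1a siRNA, si308, si309) on the repeat scale. Without MERVL-int and MT2_Mm in the repeat total, likewise chosen later, they were -0.0493, 0.0866 and 0.0932. The cause of these moves was not tested.

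Leaving out 1 library at a time, the gene-scale counts ran from 5 to 29 raised with Chaf1a siRNA, 0 to 1 raised and 2 to 17 lowered with si308, 3 to 20 lowered with si309, and 0 to 26 lowered between the pools. Against the negative control they ran from 3 to 33 raised with si308 and 3 to 4 with si309. Repeat-scale counts ran from 29 to 30 lowered with Chaf1a siRNA, 27 to 29 raised and 1 to 2 lowered with si308, 28 to 29 raised and 1 to 2 lowered with si309, and, against the negative control, 2 to 20 lowered with si308 and 0 to 15 with si309. Sums ran from 0.30 to 0.36 and from -0.12 to -0.10 with Chaf1a siRNA (gene and repeat scale), -0.17 to -0.01 and 0.14 to 0.15 with si308, -0.19 to -0.15 and 0.14 to 0.15 with si309, and -0.16 to 0.0038 and -0.00049 to 0.011 between the pools, the sign turning without si308 replicate 0 on the gene scale and without si308 replicate 1 on the repeat scale. A lone library was assumed to vary like the other groups. Shares of all repeat names called under the alternatives are not given, so these counts are not set against them. With a replicate block the gene-scale counts were 15 raised with Chaf1a siRNA, 3 lowered with si308 and 5 lowered with si309. Against the negative control, 4 were raised with si308. On the repeat scale 3 were raised and 30 lowered with Chaf1a siRNA. Correlations of same-numbered deviations ran from -0.14 to 0.12. The column numbers are not tied to the sample titles, so this cannot show whether samples were paired. Of 3108 single differences of the 20 named SINEs under the alternatives, 2709 kept direction and call, 87 gained a call, 140 lost it and 172 turned sign, 168 of them with no call in either fit.

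With 2 libraries a group, small differences are limited by the spread between replicates, widest for si308 on the gene scale. Counting error adds to it for rare names such as FAM.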
